A study of Mus musculus with 8 samples.

Results

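Involucrin (Ivl) and 9 other genes of the cornified envelope were followed in MOE (murine oviductal epithelial) cells. This is an established line of FVB mouse background from the organ that corresponds to the fallopian tube. The 10 genes, of 23337 gene symbols in all, were Ivl, Sprr1a, Sprr1b, Sprr2b, Sprr2h, Evpl, Ppl, Sbsn, Rptn and Tgm1. They were chosen from measured values, because Ivl was higher on 3D collagen in these same libraries, so the difference between the substrates is given for them as a description without a test. RNA was sequenced from 4 libraries of cells on 3D collagen gels and 4 libraries of cells on 2D collagen. All cells had been collected at confluence with trypsin and were kept for 6 h on their substrate in MOE medium that lacked EGF. The labels give no genetic change or other agent for either group. They name a single cell line and are silent on whether the replicates were grown separately. The spread behind each p-value is therefore that of the libraries and may be technical.

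The cornified envelope is a protein shell that replaces the plasma membrane of the outermost cells of stratified epithelia such as epidermis. Transglutaminases join its precursors by bonds between glutamine and lysine residues. Involucrin and the plakins envoplakin and periplakin are laid down early beneath the membrane, and small proline-rich (SPRR) proteins act as bridges between the other components. Involucrin is a textbook marker of keratinocyte terminal differentiation, whereas the oviduct is lined by a simple epithelium of secretory and ciliated cells.

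The libraries held 15692699 to 25862036 reads, which reached 14064 to 14598 genes in each. Of 8 markers of oviductal epithelium, Pax8 (7427 to 11569 normalized counts over all libraries), Krt7, Krt8, Krt18 and Krt19 were abundant, while Epcam was at 0 to 29.9, Muc1 at 5.6 to 17.4 and Cdh1 at 17.4 to 104. Krt8 was lower on 3D, at 16941 to 24341 in 3D libraries and 27443 to 40597 in 2D libraries, and passed in limma. Krt7 and Krt18 also lay below in every 3D library but did not pass. The markers summed to 156138 to 211506 in 3D libraries and 210581 to 274866 in 2D libraries. The secretory marker Ovgp1 was at most 27.2. The ciliated-cell factor Foxj1 ranged from 161 to 1028 in 3D libraries and from 1009 to 1843 in 2D libraries. The ciliated-cell genes Tekt1 and Ccdc39 were nearly absent, at 0 to 3.89 and 0 to 4.87 over all libraries. Markers of stratified epithelium (11 measured of 12) summed to 462 to 983 in 3D libraries and 359 to 908 in 2D libraries, so the groups overlapped. Most of that sum was Krt5 and Krt13, whereas late keratinocyte markers Lor and Dsg1a were at 0 in 5 and 4 of the 8 libraries and never above 5.97. Casp14, of the same list, lay below in every 3D library without passing, at 14.9 to 21.8 in 3D libraries and 22.1 to 34.6 in 2D libraries. Krt10 was at 15.9 to 39.6 over all libraries, and its groups overlapped. Sums over 6 fibroblast, 6 leukocyte and 4 endothelial markers also overlapped between the groups, at 67.7 to 333, 443 to 716 and 289 to 720 in 3D libraries against 57.6 to 371, 397 to 810 and 273 to 600 in 2D libraries. Most of the leukocyte sum was Cd68 and Csf1r, and Ptprc, Emr1, Cd3e and Itgam were never above 5.84. Most of the endothelial sum was Kdr, and Pecam1, Cdh5 and Tek were never above 17.9. Of the fibroblast markers, Col1a2, Pdgfrb and Lum were never above 13.1, and Col1a1 and Dcn overlapped between the groups. Within these lists the fibroblast marker Pdgfra was higher and passed in limma, at 14.9 to 19.3 in 3D libraries and 2.37 to 7.35 in 2D libraries. Pdgfra met the filter for testing, 10 normalized counts in 4 libraries, only through the 3D group, where it was high. Its 2D values rest on few reads. The leukocyte marker Csf1r lay below in every 3D library without passing, at 127 to 222 in 3D libraries and 252 to 433 in 2D libraries. The part of these marker shifts in the results was not tested. Transcripts of liver and intestine were present at low, uneven levels. A sum over 6 liver genes was highest in 3D replicate 1 (434) and 2D replicate 2 (405), at 4.57 to 54.1 in the other 3D libraries and 31.2 to 128 in the other 2D libraries. A sum over 8 intestine genes was 145, 168, 32.7 and 25.6 in 3D replicates 1 to 4 and 32.1, 259, 64.1 and 56.4 in 2D replicates 1 to 4.

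The coding sequences show what these proteins bring to the envelope. Of the 468 codons of Ivl, 26.7% encode glutamine, and in Rptn the share is 20.1% of 1118. Proline takes 31.9% of the 144 codons of Sprr1a, 30.7% of the 153 of Sprr1b, 41.8% of the 98 of Sprr2b and 42.6% of the 108 of Sprr2h. The stretches of 20 codons richest in glutamine (Ivl) or proline (Sprr1a, Sprr2b) are printed from the GENCODE M21 transcripts on GRCm38, with those codons in capitals. They lie at chr3:92572301-92572360 on the minus strand for Ivl, at chr3:92484564-92484623 on the minus strand for Sprr1a and at chr3:92317479-92317538 on the plus strand for Sprr2b.
Ivl: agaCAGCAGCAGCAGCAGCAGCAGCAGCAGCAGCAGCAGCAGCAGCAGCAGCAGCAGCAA
Sprr1a: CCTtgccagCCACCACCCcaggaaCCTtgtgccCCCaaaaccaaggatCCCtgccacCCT
Sprr2b: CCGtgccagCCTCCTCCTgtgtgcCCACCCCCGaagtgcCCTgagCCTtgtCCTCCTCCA
The Ivl stretch has 19 glutamine codons of 20, the Sprr2b stretch 12 proline codons and the Sprr1a stretch 8.

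Of the 10 genes, 6 lie on chromosome 3 in the epidermal differentiation complex, a cluster of genes for envelope proteins. Promoter windows of 250 bases before the transcription start were taken from RefSeq (GRCm38.p6) for the 8 genes that have one, which are all except Evpl and Ppl. The windows of Ivl (chr3:92573736-92573985, minus strand) and Sprr1a (chr3:92485882-92486131, minus strand) are shown because Ivl had the largest fold change and Sprr1a the highest level of the set. Capitals mark matches to the AP-1 motif TGANTCA and to the TATA box TATAAA, searched on both strands.
Ivl: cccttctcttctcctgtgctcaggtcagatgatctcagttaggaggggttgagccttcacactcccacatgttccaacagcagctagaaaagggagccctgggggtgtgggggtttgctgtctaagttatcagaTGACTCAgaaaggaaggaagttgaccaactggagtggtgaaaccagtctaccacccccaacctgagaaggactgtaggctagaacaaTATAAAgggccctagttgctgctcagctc
Sprr1a: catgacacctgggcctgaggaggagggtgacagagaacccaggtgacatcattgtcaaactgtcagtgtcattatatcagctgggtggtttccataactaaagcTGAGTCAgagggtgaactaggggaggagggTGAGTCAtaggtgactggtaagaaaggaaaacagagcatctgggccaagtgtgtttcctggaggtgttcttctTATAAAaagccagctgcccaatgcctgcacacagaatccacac
The AP-1 match of Ivl begins 116 bases before the start, and those of Sprr1a begin 146 and 116 bases before it. An AP-1 match was present in 7 of the 8 genes (all except Tgm1), and in 6.73% of the 32536 distinct windows of the same length. A TATA box was present in 6 of 8 genes (not Sbsn or Tgm1) and in 12.3% of all windows. Fewer of the 8 genes matched the other motifs than matched AP-1 or the TATA box. The C/EBP motif TTGCNNAA was in 1 gene (Sbsn) and in 9.57% of all windows. The GC box GGGCGG was in 2 genes (Sprr2h and Tgm1) and in 33.0% of all windows. The Maf motif TGCTGA was in 1 gene (Sprr1b) and in 16.1% of all windows. Counts this small are not read as fewer or more than those shares. A match is a run of letters and does not show that a factor binds there.

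Ivl was about 6 times as abundant on 3D as on 2D collagen, and it was alone among the 10 genes in having every 3D library above every 2D library. Ivl (chromosome 3, 92570902 to 92573735, minus strand, mm10) had 1297, 702, 815 and 590 normalized counts in 3D replicates 1 to 4, and 168, 134, 150 and 115 in 2D replicates 1 to 4. The lowest 3D library stood above the highest 2D library by more than the whole range of the 2D group. The means were 851 ± 311 on 3D and 142 ± 22.7 on 2D (SD, n = 4 each), a ratio of 6.00. The log2 fold change, on the scale of log2(normalized count + 1), which understates the change of low genes, was 2.52 with an SE of 0.26. It ranged from 2.28 to 2.70 over 20 alternative fits, and without 3D replicate 1, the highest library, it was 2.30. Per kilobase of exon, Ivl averaged 443 ± 162 normalized counts on 3D and 73.8 ± 11.8 on 2D, the place of 2121 and of 6113 among 15053 genes with a reading. Of the 50-base stretches of Ivl, 0.482% also occur in other genes. Because the RNA came from bulk cultures, more cells with the transcript and more transcript per cell cannot be told apart.

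**Figure D1:**
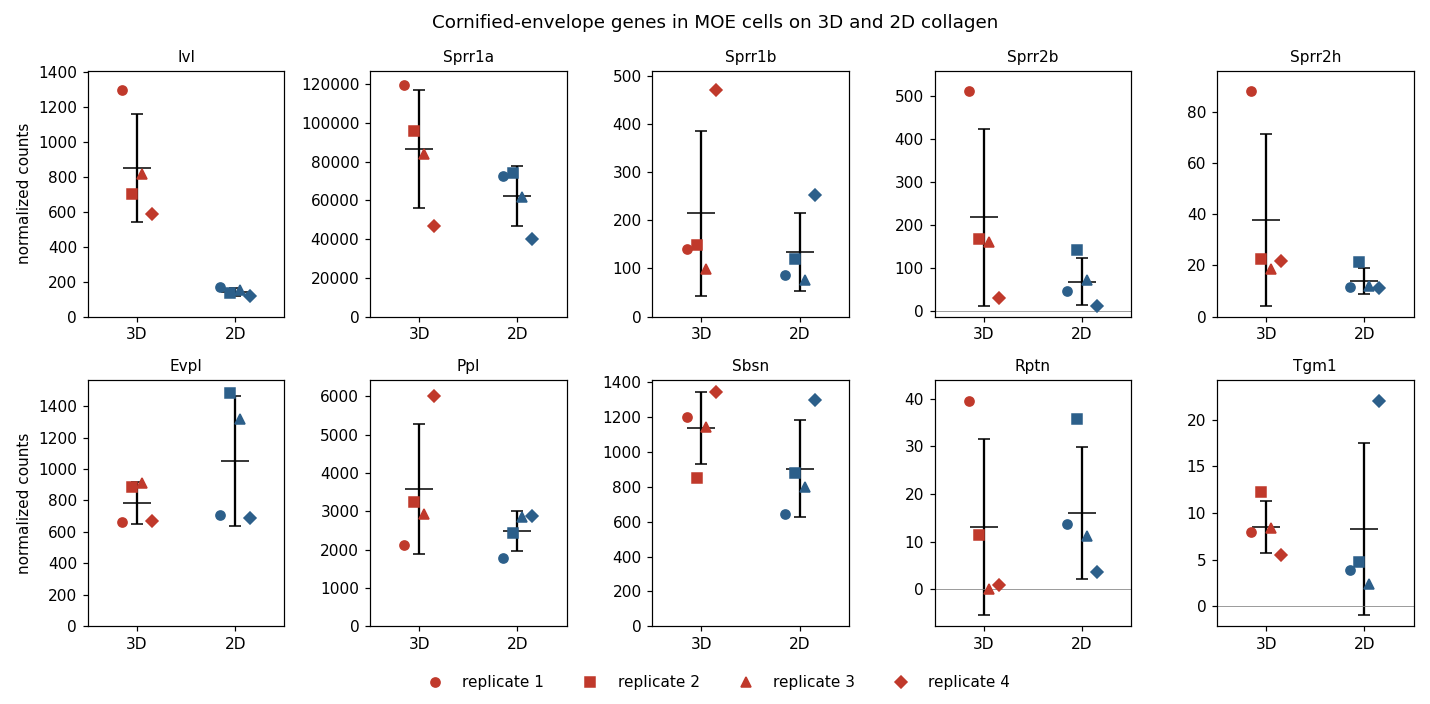
Normalized counts of each gene (y axis, linear, with 0 shown) in the 4 libraries on 3D collagen (red, left) and the 4 on 2D collagen (blue, right) of each panel; shapes mark replicate numbers, horizontal bars the mean and whiskers the SD. Ivl is the panel in which the groups do not overlap, at 590 to 1297 in 3D libraries and 115 to 168 in 2D libraries.

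The plot of counts by library shows that the SPRR genes, which encode the cross-bridging proteins, did not separate the groups. Sprr1a (chromosome 3, 92483952 to 92485895, minus strand) was among the most abundant transcripts of these cells on either substrate. Its normalized counts were 119569, 96015, 84160 and 46753 in 3D replicates 1 to 4, and 72521, 74162, 61969 and 40203 in 2D replicates 1 to 4. Replicate 4 was the lowest library of each group, and 3D replicate 4 lay below 3 of the 2D libraries. Per kilobase of exon Sprr1a averaged 107474 ± 37696 on 3D and 77188 ± 19400 on 2D (SD, n = 4 each), first on 3D and second on 2D among the 15053 genes, and 243 times the mean level of Ivl on 3D and 1045 times on 2D. Its log2 fold change was 0.44 (SE 0.31), and it was 0.26 without 3D replicate 1, 0.71 without 3D replicate 4 and 0.24 without 2D replicate 4.

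Sprr1b (chromosome 3, 92436809 to 92438789, minus strand), the other SPRR1 gene, was scarce. It had 140, 148, 98.0 and 470 normalized counts in 3D replicates 1 to 4, and 85.7, 119, 76.7 and 252 in 2D replicates 1 to 4. Here replicate 4 was the highest library of each group, the opposite of Sprr1a, and the groups overlapped. Its log2 fold change was 0.56 (SE 0.53), and it was 0.09 without 3D replicate 4, 0.35 without 2D replicate 3 and 0.92 without 2D replicate 4. Per kilobase the mean of Sprr1a was 417 times that of Sprr1b on 3D and 480 times on 2D.

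Sprr2b (chromosome 3, 92316620 to 92318085, plus strand) and Sprr2h (92385685 to 92387324, plus strand) belong to the SPRR2 group, a family of close copies with members that are also expressed in intestine. Sprr2b had 512, 169, 161 and 30.2 normalized counts in 3D replicates 1 to 4, and 46.7, 141, 72.0 and 12.3 in 2D replicates 1 to 4. It spread over more than 10-fold within each substrate, so that its log2 fold change of 1.52 carried an SE of 0.91. Sprr2h had 88.3, 22.7, 18.7 and 21.9 in 3D replicates 1 to 4 and 11.7, 21.5, 11.9 and 11.03 in 2D replicates 1 to 4 (log2 fold change 1.11, SE 0.51). Its 3D mean was carried by replicate 1. Both genes were highest in 3D replicate 1 on 3D and in 2D replicate 2 on 2D, the libraries with the highest sums over liver genes (434 and 405). The sum over intestine genes was highest in 2D replicate 2 on 2D (259), but on 3D in replicate 2 (168, against 145 in replicate 1). The part of such transcripts in the values was not tested. Without 3D replicate 1 and 2D replicate 2 the log2 fold changes were 1.41 for Sprr2b and 0.82 for Sprr2h. Leaving out a single library moved Sprr2b to 0.91 (3D replicate 1), 0.87 (2D replicate 4) or 2.26 (3D replicate 4), and Sprr2h to 0.60 (3D replicate 1). Of the 50-base stretches of Sprr2b, 14.1% also occur in Sprr2a genes, so reads there cannot be assigned to a single gene, while Sprr2h shared none. Sprr2a1 and Sprr2a2 were listed at 0 in every library, and Sprr2a3 was not analysed here. How reads that match several copies were counted is not given in the sources, so these zeros may not show absence.

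The plakins envoplakin and periplakin, which tie the envelope to desmosomes and keratin filaments, differed little between the substrates relative to their spread. Envoplakin (Evpl, chromosome 11, 116220559 to 116238077) had 661, 885, 911 and 671 normalized counts in 3D replicates 1 to 4, and 710, 1484, 1318 and 685 in 2D replicates 1 to 4. Its log2 fold change was −0.35 (SE 0.28), and the 3D values all lay inside the range of the 2D values except 661 and 671, just below it. It was −0.16 without 2D replicate 2, −0.21 without 2D replicate 3, −0.18 with library size as the scaling and −0.08 without the 2 libraries highest in liver genes. Periplakin (Ppl, chromosome 16, 5086291 to 5132421) had 2126, 3254, 2923 and 6016 in 3D replicates 1 to 4, and 1769, 2443, 2854 and 2888 in 2D replicates 1 to 4. Its log2 fold change of 0.44 (SE 0.31) rested partly on 3D replicate 4 and was 0.16 without that library, and it was 0.29 without 2D replicate 1.

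Suprabasin (Sbsn, chromosome 7, 30751471 to 30756134), a secreted protein of suprabasal keratinocytes, had 1204, 853, 1145 and 1344 normalized counts in 3D replicates 1 to 4. It had 645, 883, 798 and 1297 in 2D replicates 1 to 4, so the groups overlapped, and the log2 fold change was 0.36 (SE 0.23), with 0.21 without 2D replicate 1 and 0.54 without 2D replicate 4. The gene model Tmem147os on the same strand covers 7.70% of its exonic bases.

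Repetin (Rptn, chromosome 3, 93393699 to 93399442), an envelope protein of the S100-fused type, was near the limit of detection. It had 39.6, 11.4, 0 and 0.914 normalized counts in 3D replicates 1 to 4, where a count of 0 in replicate 3 allows up to 2.80. In 2D replicates 1 to 4 it had 13.6, 35.8, 11.1 and 3.68. The highest library of each group was again the one with the highest sum over liver genes (434 and 405), and the part of such transcripts was not tested. The log2 fold change of −1.25 had an SE of 1.14. It was −2.20 without 3D replicate 1, −0.42 without 3D replicate 3, −0.73 without 3D replicate 4 and −0.75 without 2D replicate 2. On the recovered reads it was −0.29 in edgeR and −0.31 in DESeq2.

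Transglutaminase 1 (Tgm1, chromosome 14, 55700009 to 55713926), the membrane-bound enzyme that crosslinks the envelope in keratinocytes, was barely detected and did not pass the filter of 10 normalized counts in 4 libraries. It had 7.93, 12.2, 8.40 and 5.49 in 3D replicates 1 to 4, and 3.89, 4.78, 2.37 and 22.1 in 2D replicates 1 to 4. On the other strand the gene model Gm49067 covers 5.76% of its exonic bases. Per kilobase it averaged 2.69 on 3D and 2.62 on 2D, against 443 and 73.8 for its substrate involucrin.

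The filter was passed by 9 of the 10 genes. Of these 1, Ivl, passed a limma adjusted p under 0.05 as higher on 3D and 0 as lower. Over all 11820 genes tested, 2.33% passed as higher and 3.39% as lower. Nothing is read from this count, since Ivl chose the set. Every 3D library lay above every 2D library for the same gene, where 8.05% of all genes tested did so, and for 0 of the 9 every 3D library lay below, against 10.4% of all genes. The log2 fold change was positive for 7 of the 9 genes and negative for Evpl and Rptn. The median was 0.44 for the 9 and 0.02 for all genes tested. Nothing is read from the separation, the signs or the median either, since Ivl chose the set and is 1 of the 9.

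**Figure D2:**
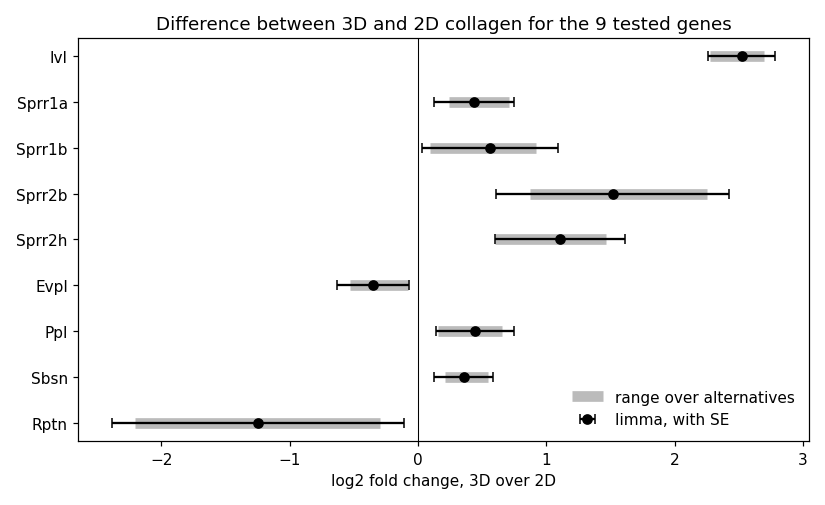
Log2 fold change of 3D over 2D collagen (x axis) for the 9 genes that passed the filter (y axis); points are the limma estimates, whiskers their SE and grey bars the range over the alternative fits. Ivl lies at 2.52 (range 2.28 to 2.70), while the estimates of the other genes lie between −1.25 and 1.52.

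Within a substrate the genes followed different libraries. In deviations from the mean of the own group (log2), Sprr2b reached 1.82 in 3D replicate 1 with −2.22 in replicate 4, and 1.49 in 2D replicate 2 with −1.93 in replicate 4. In the libraries numbered 4, Sprr1b reached 1.41 on 3D and 1.08 on 2D, and Ppl 0.86 on 3D and 0.24 on 2D. Over the 8 libraries Sprr1a and Sprr2b had a within-group Pearson r of 0.94, Ivl and Sprr1a of 0.79 and Ivl and Sprr2b of 0.75. Sprr1a and Ppl had −0.87, Ivl and Ppl −0.86 and Sprr1a and Sprr1b −0.83. These values describe 8 points that share library and depth, and of the 45 pairs of genes 14 were above 0.5 and 9 below −0.5. The libraries numbered 4 of both groups deviated alike over all genes tested (r = 0.81), a pattern that is not particular to this set. Among all genes tested, those with deviations most like those of Ivl were 1810011O10Rik (r = 0.97), Setd3, Crem, Bzw2 and Cbs (r from 0.95 to 0.96). None of these 5 passed the threshold between the substrates in limma, and their log2 fold changes were 0.65, −0.37, 0.52, 0.36 and −0.42.

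**Figure D3:**
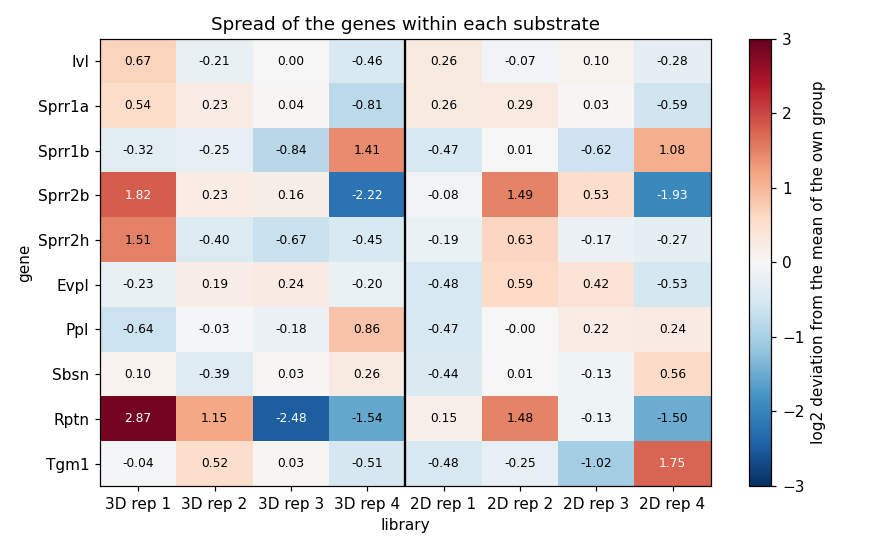
Deviation of log2(normalized count + 1) from the mean of the own group (colour and printed value) for the 10 genes (rows) in the 3D libraries (left of the line) and the 2D libraries (right). Sprr2b and Rptn are high in 3D replicate 1 and 2D replicate 2, and Sprr1b is high in replicate 4 of both groups, where Sprr1a and Sprr2b are low.

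Other genes of cornification were read from 8 lists of 200 genes in all, with the members left out. Of these 93 were tested, and 10 rose and 4 fell on 3D collagen, with a median log2 fold change of 0.21 (0.02 for all genes tested). That is 10.75% higher and 4.30% lower, where 2.33% and 3.39% of all genes tested passed. The lists were chosen with earlier results of these data known, so these shares and those of each list below are a description only. The higher count moved to 2 without 3D replicate 1 or 2, 3 without 3D replicate 3, 5 without 2D replicate 4, 6 without 3D replicate 4 or 2D replicate 1 and 3 without the 2 libraries highest in liver genes. The lower count moved to 2, 2 and 1 without 3D replicates 1, 2 and 3. A fit without 1 library also has fewer libraries to test.

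Genes listed as transcription factors of epidermal terminal differentiation made up 7 of the 10 genes that rose. The list also holds factors with other roles, such as Klf5 and Nfe2l2 below. Of 30 tested, 7 (23.3%) rose and 0 fell in limma, against 2.33% and 3.39% of all genes, with a median log2 fold change of 0.60. By unadjusted limma p under 0.05 there were 12 higher and 2 lower, and DESeq2 called 8 higher and 1 lower. Over all genes DESeq2 called 699 higher and 859 lower. The share of all genes under the unadjusted cutoff is not given here. Maf (chromosome 8), a basic leucine zipper factor that promotes late differentiation in human keratinocytes, had 91.7, 99.5, 138 and 190 normalized counts in 3D replicates 1 to 4, and 5.84, 4.78, 19.8 and 22.1 in 2D replicates 1 to 4. Every 3D library was at least 4 times the highest 2D library (log2 fold change 3.42, SE 0.51, adjusted p = 0.00822 in limma). With 2D replicates 1 and 2 below 10 normalized counts, Maf met the filter of 4 libraries only through the 3D group, where it was high. Its 2D values rest on few reads.

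Klf5, a Kruppel-like factor of proliferating epithelium, averaged 178 ± 45.6 on 3D and 60.2 ± 15.6 on 2D (SD, n = 4 each; log2 fold change 1.55, limma adjusted p = 0.0238). Nfe2l2, which encodes the antioxidant regulator NRF2, averaged 5238 ± 1286 on 3D and 2006 ± 661 on 2D (log2 fold change 1.42, limma adjusted p = 0.0247). Cebpb (1577 ± 335 on 3D, 641 ± 248 on 2D) and Klf4 (331 to 426 on 3D, 137 to 263 on 2D), named after their values were seen and both regulators of keratinocyte differentiation, also rose. Of the exonic bases of Cebpb, 20.7% lie opposite a gene on the other strand. Maf passed in every fit run. Calls were lost when single libraries were left out for Klf5 (3D replicates 1, 2 and 4, limma adjusted p from 0.0528 to 0.0854) and Nfe2l2 (3D replicates 1 to 3 and 2D replicate 4, 0.0503 to 0.0817). They were also lost for Cebpb (3D replicates 1 to 3 and 2D replicates 1, 3 and 4, 0.0502 to 0.0939) and Klf4 (all except 2D replicate 3, 0.0577 to 0.128). Leaving out 3D replicate 1 or 2 left 2 factors called, leaving out 3D replicate 3 or 2D replicate 4 left 3, and leaving out 3D replicate 4 or 2D replicate 1 left 4. There were 3 without the 2 libraries highest in liver genes and 4 without both libraries numbered 4.

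The AP-1 genes Fos, Fosb, Fosl1, Fosl2, Jun, Junb and Jund, whose products bind the motif found in the promoter windows, belong to the same list. Of these 7, 0 passed in limma, edgeR or DESeq2, and 1 had an unadjusted limma p under 0.05. Nothing is read from that 1, since the share of all genes under the unadjusted cutoff is not given here. Over all genes 2.33% passed as higher and 3.39% as lower in limma, so 0 of 7 is near those shares. Jun averaged 1053 ± 356 on 3D and 891 ± 256 on 2D, and Fosl1, with an antisense overlap of 57.2% of its exonic bases, averaged 550 ± 196 on 3D and 338 ± 297 on 2D.

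Among other envelope precursors and keratohyalin genes, most were not expressed at a level that could be tested. Of 50 listed genes 46 had a row, 11 of those were at 0 in every library and 6 were tested. The highest value of any untested gene was 18.1, for Lce3c in a 3D library. In limma 1 of the 6 (16.7%) rose and 0 fell, against 2.33% and 3.39% of all genes. The gene that rose was Cstb, which encodes the cysteine protease inhibitor cystatin B. Cstb had 18594, 16668, 18115 and 14827 normalized counts in 3D replicates 1 to 4 and 9137, 9023, 11935 and 9203 in 2D replicates 1 to 4. Its log2 fold change was 0.80 (SE 0.16, adjusted p = 0.0221 in limma). Leaving out 3D replicate 1, 2 or 3 ended the call, with limma adjusted p of 0.0736 to 0.0899. Annexin A1 (Anxa1), a membrane-binding protein found in envelopes, averaged 12373 ± 2000 on 3D and 7095 ± 3147 on 2D (limma adjusted p = 0.151). The protease inhibitor Slpi, named after its value was seen, had every 3D library (541 to 1978) above every 2D library (128 to 476) with a limma adjusted p of 0.0502. It passed in DESeq2 and in edgeR. The family member Sprr2g averaged 714 ± 462 on 3D and 299 ± 106 on 2D (limma adjusted p = 0.133).

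Plakin, desmosomal plaque and desmosomal cadherin genes fell in 3 (21.4%) and rose in 1 (7.14%) of 14 tested, against 3.39% and 2.33% of all genes, with a median log2 fold change of −0.39. Plectin (Plec), the plakin that links keratin filaments to the membrane and to actin, had 15180, 15383, 14498 and 15436 normalized counts in 3D replicates 1 to 4. In 2D replicates 1 to 4 it had 24632, 31961, 33757 and 27525, so the 3D libraries lay close together and below all of these (log2 fold change −0.95, SE 0.15, limma adjusted p = 0.0107). Epiplakin (Eppk1), another plakin, averaged 357 ± 37.1 on 3D and 855 ± 346 on 2D (log2 fold change −1.18, limma adjusted p = 0.0313). Plakophilin 2 (Pkp2), of the desmosomal plaque, averaged 1857 ± 109 on 3D and 3406 ± 622 on 2D (log2 fold change −0.86, limma adjusted p = 0.0193). Perp, a desmosomal membrane protein, averaged 2410 ± 265 on 3D and 1640 ± 140 on 2D (log2 fold change 0.55, limma adjusted p = 0.0484), and its call was lost without any single library (limma adjusted p from 0.0590 to 0.119). The call of Plec was lost without 3D replicate 3 (0.0544), that of Pkp2 without 3D replicate 1, 2 or 3 (0.0596 to 0.0690) and that of Eppk1 without any 3D replicate or 2D replicate 1 (0.0581 to 0.0953) and with library size as the scaling. The lower count was 1, 1, 0, 2 and 2 without 3D replicates 1, 2, 3 and 4 and 2D replicate 1.

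Stratified epithelial keratins fell in 1 (9.09%) of 11 tested and rose in 0, against 3.39% and 2.33% of all genes. Krt80, a keratin of differentiating epithelia, had 425, 534, 394 and 332 normalized counts in 3D replicates 1 to 4, and 1625, 2983, 1814 and 1885 in 2D replicates 1 to 4. It fell by 2.28 on the log2 scale (SE 0.22, limma adjusted p = 0.00160) and passed in every fit run. The basal keratin Krt5 averaged 411 ± 155 on 3D and 363 ± 254 on 2D (limma adjusted p = 0.683).

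The lipid side of the envelope gave 1 call, as higher, in 9 tested genes (11.1%). Over all genes 2.33% passed as higher and 3.39% as lower. Acid ceramidase (Asah1) averaged 2984 ± 142 on 3D and 1811 ± 508 on 2D (log2 fold change 0.76, limma adjusted p = 0.0495), and leaving out any library but 2D replicate 1 ended the call, with limma adjusted p of 0.0759 to 0.133. The fatty acid transporter Slc27a4 averaged 2949 ± 607 on 3D and 4799 ± 1967 on 2D (limma adjusted p = 0.174).

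Proteases and inhibitors of cornification (12 tested) and S100 genes of the epidermal differentiation complex (10 tested) gave 0 calls in limma. Over all genes 2.33% passed as higher and 3.39% as lower, so 0 calls in lists this short is near those shares. By unadjusted p under 0.05 limma had 2 and 1 higher and 0 and 1 lower. The share of all genes under that unadjusted cutoff is not given here, so nothing is read from these counts. edgeR called 0 in both lists and DESeq2 called 1 S100 gene as higher. The lysosomal proteases Ctsd and Ctsl averaged 69191 ± 20250 and 30963 ± 11982 on 3D, against 81694 ± 26112 and 22100 ± 8801 on 2D, and 26.8% of the exonic bases of Ctsl lie opposite another gene. S100a6 and S100a10 averaged 67416 ± 20631 and 17602 ± 1598 on 3D, against 69558 ± 17495 and 17073 ± 3105 on 2D.

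Among the other transglutaminases only Tgm2, the widely expressed tissue form, was abundant enough to test. Tgm2 had 27617, 17382, 14947 and 4352 normalized counts in 3D replicates 1 to 4 and 22041, 23656, 23951 and 4551 in 2D replicates 1 to 4. The groups overlapped and replicate 4 was the lowest library of each (log2 fold change −0.22, SE 0.67, limma adjusted p = 0.875). Of its exonic bases, 21.8% lie opposite another gene. Neither limma, at unadjusted p under 0.05 either, nor edgeR nor DESeq2 called it. Tgm5, a keratinocyte form, averaged 6.15 ± 2.99 on 3D and 10.3 ± 3.97 on 2D and was not tested.

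**Figure D4:**
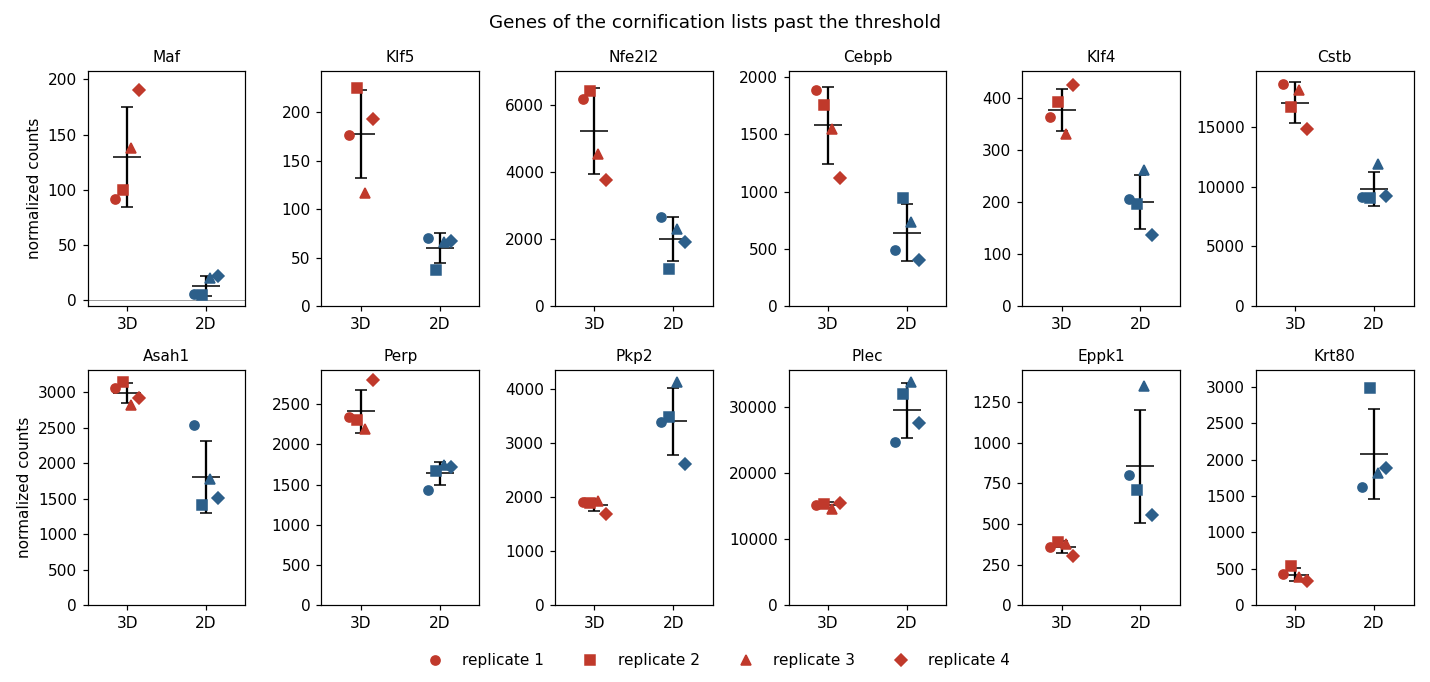
Normalized counts (y axis, linear, with 0 shown) of 12 of the 14 genes of the cornification lists past the limma threshold, in 3D libraries (red, left) and 2D libraries (blue, right); shapes mark replicate numbers, horizontal bars the mean and whiskers the SD. In each panel the groups do not overlap, with the 3D libraries above for 8 of the genes shown, from Maf to Perp, and below for Pkp2, Plec, Eppk1 and Krt80. The genes are shown because they passed, which favours such separation. Of the 93 list genes tested, 17 had every 3D library above and 7 below, against 8.05% and 10.4% of all genes.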

How the data were processed

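The deposited values are a signal per gene for 23337 symbols, namely reads over 1 size factor for each library. HTSeq 0.6.1p1, DESeq2 and the mm10 build are named, per the submitters' processing notes. Aligner, annotation, strand setting and filters were not given in the sources used here. All values (100%) were whole multiples of 1 read within 0.001 reads, and they are called normalized counts. Depth was 15692699 to 25862036 reads per library; floors cover counting error only.

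limma 3.58.1 (R 4.3.3) was run on log2(normalized count + 1) with a trended, robust prior variance, over 11820 genes with at least 10 normalized counts in at least 4 libraries, without covariates. P-values were adjusted by Benjamini-Hochberg over all of them (threshold 0.05). edgeR 4.0.16 and DESeq2 1.42.0 on the recovered reads, other scalings, filters and pseudocounts, the replicate block and leaving out libraries were alternatives. The computations were tested on simulated data.

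The genes, lists, markers and motifs were chosen with earlier results of these data known. Named genes were all members, up to 4 called genes with the smallest adjusted p per list (the 2 most abundant where fewer than 2 passed) and the 5 genes most like Ivl. In the lists 6 genes are not analysed here, and a few genes under the naming rule are left unreported. Positions, exonic lengths and overlaps came from GENCODE M21 (GRCm38); promoter windows came from RefSeq.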

Additional observations from a re-analysis of the deposited data

Results flagged for a closer look

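In 62 groups of 4 libraries, from the 10 envelope genes and the named genes of the lists, 10 held a library far from the others of its group; chance alone gives about 1 in 20. Sprr1b was highest in 3D replicate 4 at 470 normalized counts (the others 98.0 to 148). Sprr2h was highest in 3D replicate 1 at 88.3 (the others 18.7 to 22.7) and in 2D replicate 2 at 21.5 (the others 11.03 to 11.9). Tgm1 was highest in 2D replicate 4 at 22.1 (the others 2.37 to 4.78). Among the list genes, Tgm2 was lowest in 2D replicate 4 at 4551 (the others 22041 to 23951), and S100a6 was highest there at 95558 (the others 58879 to 64222). Pkp2 was lowest in 3D replicate 4 at 1695 (the others 1893 to 1932). Slc27a4 was highest at 7727 (the others 3559 to 4150) and Klf5 lowest at 37.0 (the others 66.4 to 70.1) in 2D replicate 2. Cstb was highest in 2D replicate 3 at 11935 (the others 9023 to 9203).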

How the results depend on the processing

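Over the 20 alternatives the log2 fold change of Ivl, whose difference chose the set, ran from 2.28 to 2.70, and none of the 9 tested envelope genes changed direction where a value could be had. Scaling by library size shifted the median log2 fold change of all genes by 0.17 and gave 498 higher and 318 lower genes (39.0% lower, against 59.3% as reported). DESeq2 called 699 higher and 859 lower, and 16 list genes higher. Deviations of same-numbered libraries had r = −0.17, 0.37, 0.25 and 0.81 for numbers 1 to 4. For 3D replicates 2, 3 and 4 the most similar 2D library was that of the same number. 3D replicate 1 was most like 2D replicate 2 (r = 0.45). The labels do not say whether the numbers pair the libraries, and the reported fit did not use them. With the replicate block, limma called 663 higher and 742 lower and edgeR 718 and 643, with 9 list genes lower in each. Anxa1 passed as higher in both of these fits and in no other. Leaving out 1 library gave 43 to 276 higher and 103 to 370 lower genes, and 2 to 7 higher and 1 to 5 lower list genes. Chosen after seeing the data, leaving out both libraries numbered 4 gave 177 higher genes and 6 higher list genes, and leaving out 3D replicate 1 and 2D replicate 2 gave 76 higher and 143 lower genes and 3 higher and 2 lower list genes. Signs turned for uncalled genes: S100a6 had 0.11 with library size, 0.0345 without the 2 libraries highest in liver genes and −0.25 to 0.10 without 1 library; S100a10 had −0.0014 without those 2 libraries and −0.0114 to 0.18 without 1; Tgm2 had −0.80 to 0.32 without 1. The causes of these shifts were not tested. Genes with few reads, such as Rptn and Tgm1, are imprecise at this depth.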
